A study of Bos taurus with 2 samples.

Results

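The genes described here encode the hypoxia-inducible factors (HIFs), the enzymes that sense oxygen for them and the signaling peptide adrenomedullin, in the *longissimus thoracis* muscle of fetal calves. They are *HIF1A*, *EPAS1*, *HIF3A*, *ARNT*, *EGLN1*, *EGLN2*, *EGLN3*, *VHL*, *HIF1AN* and *ADM*, chosen by name, and their probes were found through the transcript accession of each probe. All 10 genes had a value, among 19554 genes with a value on the arrays. The study compared fetuses of Japanese Black dams fed either 60% of their nutritional requirement (LN, low nutrition) or 120% of it (HN) during gestation, to learn how maternal undernutrition affects fetal muscle. No group fed exactly the requirement was among the samples. RNA of 4 fetuses per group, the heaviest of the HN group and the lightest of the LN group, was mixed into 1 pool, and each pool was hybridized to 1 array. Diet and the choice of fetuses by body weight cannot be told apart. The arrays do not measure the spread between fetuses, so the groups could not be compared by a test here. The paper also measured selected genes by quantitative PCR in single fetuses, which is not part of the data used here. All fetuses were taken at about 8.5 months (day 260 ± 8.3 of gestation) and were exsanguinated after lidocaine, so that muscle of both groups was sampled after blood loss.

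A HIF is a pair of proteins, an oxygen-regulated α subunit (HIF1A, EPAS1 or HIF3A) and a stable partner, ARNT. When oxygen is present, the prolyl hydroxylases EGLN1, EGLN2 and EGLN3 mark the α subunit, the VHL protein binds the mark, and the subunit is degraded, while HIF1AN hydroxylates an asparagine and thereby blocks the recruitment of coactivators. When oxygen falls, the α subunit persists and genes of glucose uptake, glycolysis, iron handling and blood vessel growth are transcribed, among them *ADM*, *EGLN3* and *EGLN1* themselves. This regulation acts mostly on the protein, which was not measured, so the values below concern mRNA alone.

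The 10 genes were covered by 23 probes, of which 22 were detected, that is, with a signal that the scanner software marked as well above background in 1 or both pools. Values are given as the deposited signal of each pool (arbitrary units of brightness) and as log2 LN/HN, the LN minus the HN log2 signal after quantile normalization, averaged over the probes of a gene. A gene was called higher or lower when its log2 LN/HN was beyond 0.32 in size, the fold limit of the study written on the log2 scale. In the LN pool 1 of the 10 genes was higher (*EGLN3*) and 1 was lower (*EPAS1*) past this limit. Over all genes, 18.0% were past it in either direction, 8.85% higher and 9.11% lower, so the 20% among these genes is near the background. No gene of the 10 was past 2-fold, as were 0.997% of all genes. The median log2 LN/HN was 0.12 over the 10 genes and -0.0033 over all genes, with 7 of the 10 above 0.

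Several errors of measurement can be set beside these values, and none of them includes the variation between animals. The software's error estimate gives a 95% interval of ±0.40 to ±0.64 around the log2 LN/HN of a member probe, from standard errors of 0.20 to 0.33. Repeated spots of the same probe varied less than these standard errors, with an SD of 0.085 over 42 probes. The median SD between different probes of a gene was 0.099 over 7139 genes. Of the 20 member probes measured on both arrays, 14 were higher and 6 lower in the LN pool, and the software interval excluded 0 in 3 of them, the single probe of *EGLN3*, the brighter probe of *EPAS1* and the brightest probe of *HIF3A*. Large differences were more frequent among dim genes: 38.6% of the genes with a mean log2 signal under 5 were past 0.32, compared with 15.8% between 5 and 8 and 6.84% at 8 or more, limits chosen after seeing the data.

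**Figure D1:**
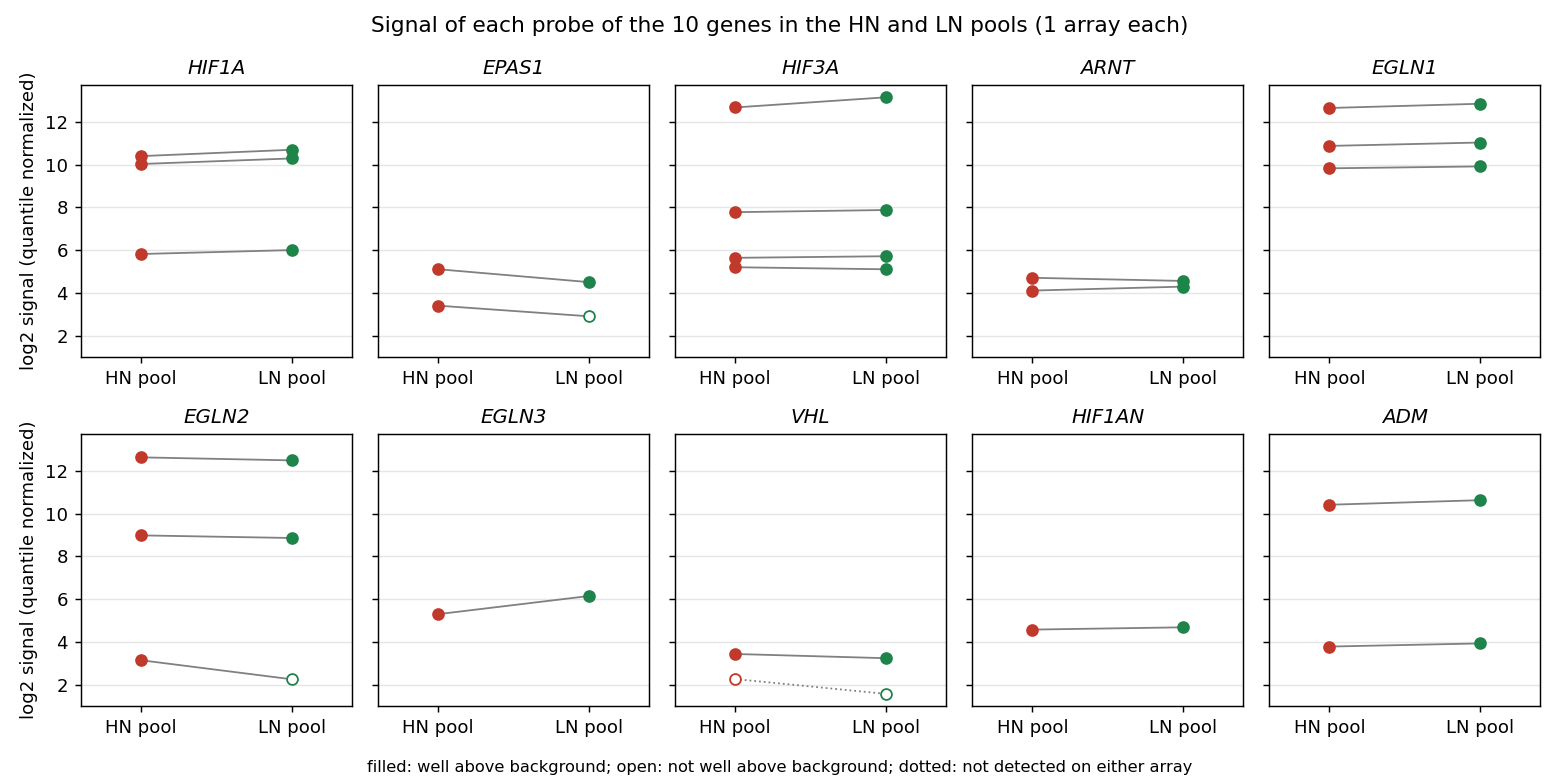
Quantile-normalized log2 signal of every probe of the 10 genes (vertical axis) in the HN pool (red) and the LN pool (green), with a line joining the same probe. *EGLN3* climbs from 5.30 to 6.15, the brighter *EPAS1* probe drops from 5.11 to 4.51, and most other lines are close to level.

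The α subunits did not move alike. *HIF1A*, which encodes the α subunit found in most tissues, had signals of 1319 in HN and 1678 in LN on its brightest probe, 1027 and 1269 on the second, and 56.9 and 64.0 on the dimmest. Each probe was thus brighter in the LN pool, with log2 LN/HN of 0.30, 0.26 and 0.18. The mean was 0.25 with an SD of 0.058 between probes, a 1.19-fold higher level that stayed inside the limit of 0.32. It lay between 0.23 and 0.30 over all 12 other ways of processing the arrays. The software interval of the brightest probe, -0.10 to 0.70, included 0. The paper states that HIF-1α expression did not differ significantly by diet, without naming the measurement there.

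*EPAS1* encodes HIF-2α, the subunit known for its abundance in endothelial cells. Its brighter probe gave 35.1 in HN and 22.2 in LN, a log2 LN/HN of -0.60 with a software interval of -1.05 to -0.15. The other gave 11.2 and 7.06, where the LN signal was not well above background. Its log2 LN/HN of -0.50 (1.41-fold lower) is the value as measured, with software errors of 14.4% in HN and 22.9% in LN. Both probes were lower in the LN pool, and the gene value, the mean of both, was -0.55. The probe above background in both pools gave -0.60 alone. These signals are dim, in the range where 38.6% of all genes were past 0.32. After the normexp background correction, which adds an offset of 50 to both signals and so shrinks the ratio of dim probes, the value was -0.10 and the call was lost. *HIF1A* was above 0 and *EPAS1* below 0 under all 12 settings as well as in the reported values.

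Markers of vessel cells are given beside *EPAS1*. All 8 endothelial markers were detected, and their summed normalized signal was 12355 in HN and 9644 in LN, most of it from *CLDN5*. For 6 of them the LN signal was the lower, with a median log2 LN/HN of -0.21, and *CLDN5*, a tight junction gene of vessels, had -0.39, the only marker of the 8 past the limit (12.5%, against 18.0% of all genes). *ERG* (0.27) and *VWF* (0.02) were above 0 through means that include a limit from a dim probe, and their brightest probes were lower in LN, at log2 signals of 9.16 and 8.86 for *ERG* and 9.71 and 9.57 for *VWF*. Of the pericyte and smooth muscle markers, 3 of 4 were lower, with *ACTA2* (-0.33) and *MYH11* (-0.49) past the limit, and their sum, nearly all of it *ACTA2*, was 9982 in HN and 7884 in LN. *PDGFRB* was past it in the other direction at 0.49, a mean that includes a limit from a dim probe and in which the brightest probe gave 0.06. Together 75% of these 4 markers were past the limit, against 18.0% of all genes. In pooled tissue RNA, fewer cells of a type and less RNA per cell cannot be told apart, and the part of these cells in the *EPAS1* value was not tested.

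*HIF3A* encodes the third α subunit, known from many splice forms, some of which restrain the other HIFs. Its brightest probe gave 6417 in HN and 9151 in LN, a log2 LN/HN of 0.47 with a software interval of 0.074 to 0.87. The other 3 probes gave 216 and 237, 50.4 and 52.2, and 37.5 and 33.9, with log2 LN/HN of 0.10, 0.07 and -0.10. The brightest probe therefore stood apart from the others, which were all within the software error of 0. The gene mean was 0.14 with an SD of 0.24 between probes, more than for *HIF1A* or *EGLN1*. It was 0.47, past the limit, when the brightest probe stood for the gene. The probes carry the same transcript accession, and which splice forms each detects is not given in the sources used here.

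*ARNT*, the common partner of the α subunits, had probes in opposite directions. One gave 26.8 in HN and 23.1 in LN (log2 LN/HN -0.15) and the other 17.9 and 19.1 (0.18). Both intervals included 0, and the mean of 0.02 was smaller than the SD of 0.23 between the probes. Its sign was negative after scaling each array by its 75th percentile (-0.096), without normalization (-0.061), after normexp (-0.0089) and with the brightest probe (-0.15), so no direction can be given. *ARNT2*, a related partner subunit, had a log2 LN/HN of 0.12 from the 1 of its 3 probes that gave a value.

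Among the prolyl hydroxylases, *EGLN3* had the largest difference of all 10 genes. The gene is known to be induced by HIF and to be expressed in muscle. Its only probe gave 40.1 in HN and 70.9 in LN, a log2 LN/HN of 0.85 (software interval 0.43 to 1.26), or 1.80-fold higher. It was at rank 246 by rise among the 19554 genes, in the signal range where 15.8% of genes were past 0.32. The value stayed past the limit under all 12 other settings, between 0.79 and 0.88 under 11 of them and at 0.33 after normexp. With 1 probe and 1 array per pool, no second measurement of *EGLN3* was at hand.

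*EGLN1*, which encodes the main oxygen-sensing prolyl hydroxylase of most cells, was measured by 3 probes. They gave 6318 in HN and 7442 in LN, 1847 and 2122, and 892 and 980. All were brighter in the LN pool, with log2 LN/HN of 0.20, 0.16 and 0.09 and intervals that included 0. The mean of 0.15 had an SD of 0.055 between probes, and the log2 LN/HN of *EGLN3* exceeded it by 0.70.

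*EGLN2*, a prolyl hydroxylase that is not known as a HIF target, went in the opposite direction from both. Its bright probes gave 6253 in HN and 5819 in LN, and 499 and 472, with log2 LN/HN of -0.14 and -0.12. A dim probe gave 9.35 and 4.40, the latter not well above background, and contributed a limit of -0.33. The gene value of -0.20 was within the limit and was -0.13 with only the probes well above background on both arrays. It was -0.38, past the limit, when the dim signal was used as measured, a setting that rests on the dim probe. The 3 hydroxylases thus had values of 0.85, 0.15 and -0.20, with all detected probes of a gene on the same side of 0.

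**Figure D2:**
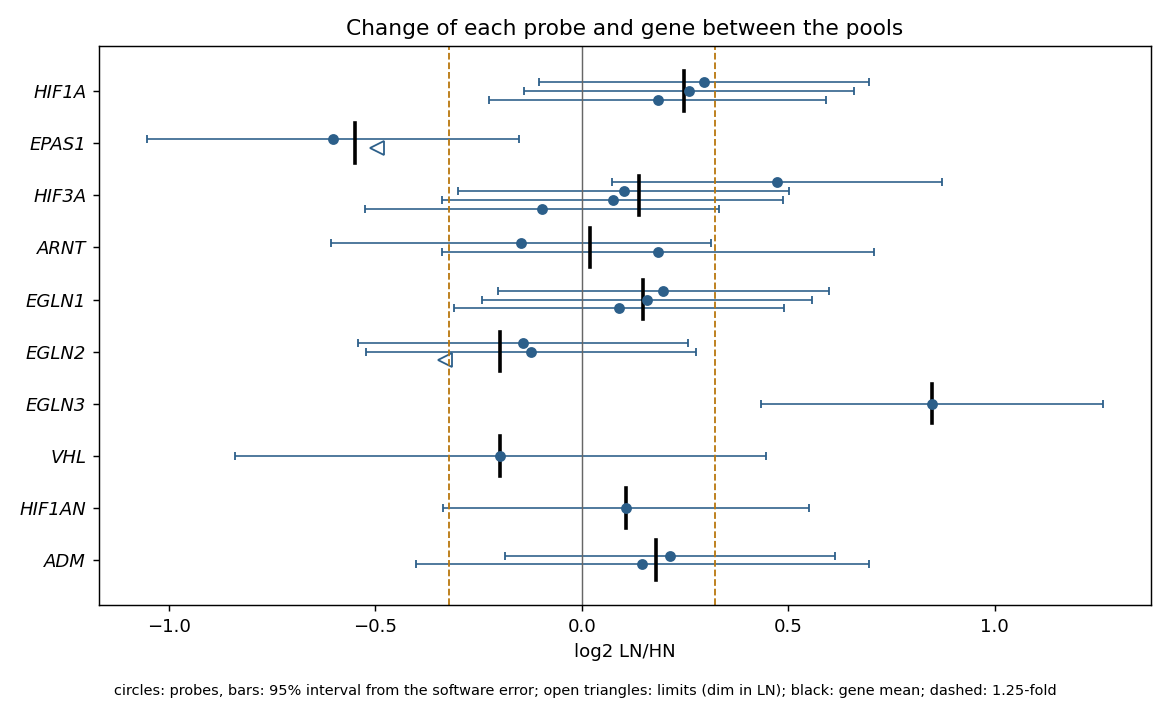
Log2 LN/HN of each probe (circles, with the 95% interval from the software error) and of each gene (black bars). Dashed lines mark the limit of 0.32. Open triangles are probes with a dim LN signal, a measured value for *EPAS1* and a limit for *EGLN2*. *EGLN3* at 0.85 and *EPAS1* at -0.55 are the gene values outside the dashed lines, and the upper probe of *HIF3A* at 0.47 lies apart from the other 3.

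*VHL* encodes the subunit that recognizes hydroxylated HIF α for destruction. The probe that was detected gave 11.5 in HN and 9.04 in LN, and the other (5.26 and 2.64) was not well above background on either array. The log2 LN/HN was -0.20 with a wide interval of -0.84 to 0.44. Its size depended on the processing of these dim signals: it was -0.34 without normalization, -0.38 in the authors' normalized values and after scaling to the 75th percentile, -0.44 with either looser filter on dim probes, and -0.069 after normexp. It was lower in the LN pool under every setting, and past the limit under 5 of 12. *HIF1AN*, the asparaginyl hydroxylase, had 24.5 in HN and 25.2 in LN on its only probe. Its log2 LN/HN was 0.11 (interval -0.34 to 0.55) and went down to 0.0028 after scaling to the 75th percentile.

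*ADM* encodes adrenomedullin, a vasodilator peptide and a known target of HIF. Its signals were 1337 in HN and 1605 in LN on the brighter probe, and 14.4 and 14.8 on the dim probe. The probes gave log2 LN/HN of 0.21 and 0.15, both with intervals that included 0, and a mean of 0.18 (1.13-fold). The value lay between 0.12 and 0.21 over the other settings. Thus, *ADM* was slightly brighter in the LN pool on both probes, by less than the limit.

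On the receptor side of adrenomedullin, the 4 probes of *CALCRL*, the receptor itself, gave a mean log2 LN/HN of 0.03. *PAM*, the enzyme that amidates the peptide, had -0.08. *RAMP3*, a partner that directs the receptor towards adrenomedullin, gave 25.5 in HN and 31.6 in LN, a log2 LN/HN of 0.37 from 1 probe that was within the limit after normexp (0.16), without normalization (0.31) and after scaling to the 75th percentile (0.27).

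**Figure D3:**
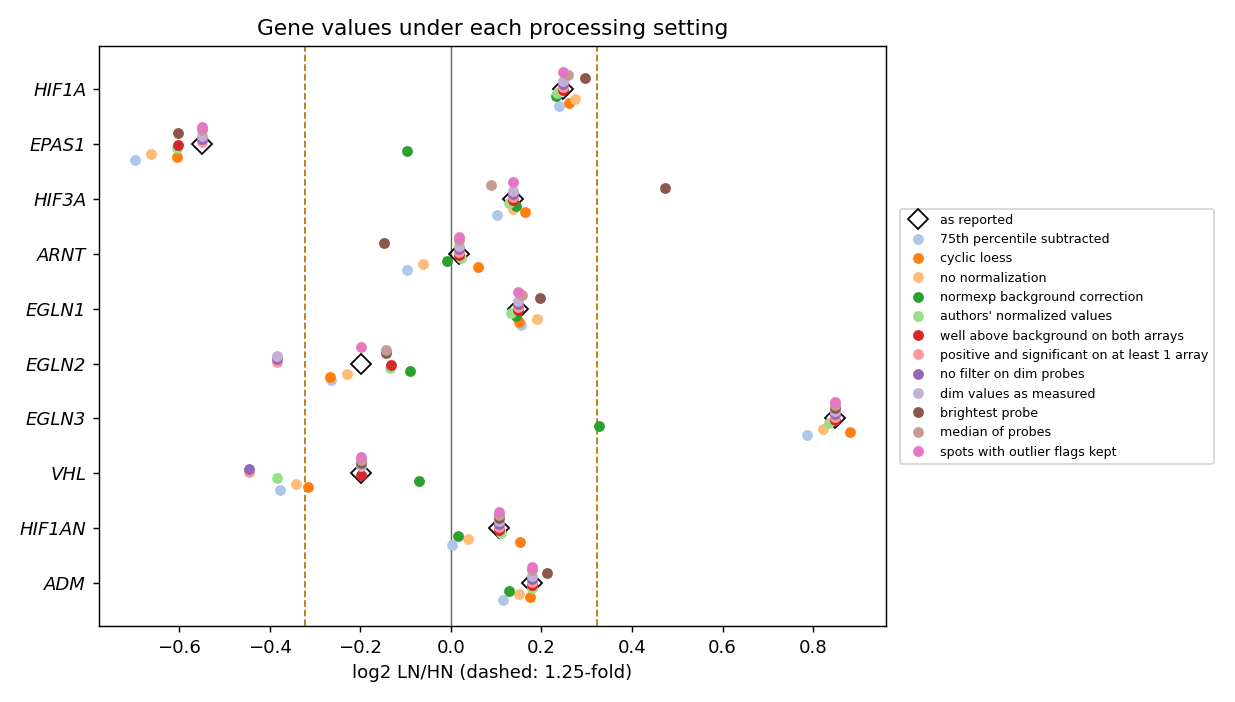
Log2 LN/HN of the 10 genes (horizontal axis) as reported (diamonds) and under 12 other settings (colored points), with the limit of 0.32 as dashed lines. *HIF1A*, *EGLN1* and *ADM* keep within a narrow range, the *EPAS1* and *EGLN3* points after normexp lie closest to 0, and *VHL* spreads from -0.44 to -0.07.

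The ubiquitin ligase with VHL and other proteins that set HIF stability or activity were represented by a list of 20 genes, 16 of them with a value. None of the 16 was past 0.32, against 18.0% of all genes and 6.84% of the genes with a mean log2 signal of 8 or more. The brightest probe of each of them except *ARNT2* was in that range of signal, but the range refers to the mean over all probes of a gene. How many of the 16 lie in it by that mean was not counted, so the count of 0 is not read as a result about them. The values ran from -0.19 (*P4HTM*, a membrane-bound prolyl hydroxylase) to 0.19 (*CUL2*, the scaffold of the ligase), with a median of 0.022. *CUL2* had 4 probes, all above 0, and its brightest gave 2271 in HN and 2685 in LN. The other ligase subunits *ELOB*, *ELOC* and *RBX1* had log2 LN/HN of -0.04, 0.09 and 0.01.

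To see the genes on which HIF acts, 60 genes known to be induced through it were listed by hand, and 52 had a value. Of the 52, 22 were higher and 30 lower in the LN pool, with a median log2 LN/HN of -0.05. Past the limit were 4 higher and 7 lower genes, together 21.2%, near the 18.0% of all genes. The list thus showed no common direction. *ANGPTL4*, *GPI* and *PGAM1* of this list are named in the study from the same arrays, and the median without them was -0.036. The paper also reports *ANGPTL4*, *GPI* and *PGAM1* as lower in LN by quantitative PCR of single fetuses.

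The genes of glucose uptake and glycolysis in this list were divided, with 7 of 17 higher and 10 lower, and 17.6% were past the limit, near the 18.0% of all genes. *SLC2A1*, the glucose transporter of basal uptake, gave 147 in HN and 246 in LN on its brightest probe, and its log2 LN/HN was 0.80 (1.74-fold higher, 2 probes at 0.73 and 0.87). *PFKL*, the liver form of phosphofructokinase, had 0.34. On the other side, *PFKFB3*, which makes the activator of phosphofructokinase, gave 2284 and 1639 on its brightest probe, with a log2 LN/HN of -0.42 over 3 probes from -0.52 to -0.35. The remaining 9 lower genes encode enzymes of glycolysis itself and were all within the limit, from -0.32 (*GPI*, at its edge) through *ENO1* (-0.26), *GAPDH* (-0.23), *PGK1* (-0.20), *ALDOA* (-0.15), *HK1* (-0.14), *LDHA* (-0.14) and *PGAM1* (-0.08) to *TPI1* (-0.06). Also within it but above 0 were *PFKFB4* (0.30), *PDK1* (0.25), *PFKP* (0.16), *SLC16A3* (0.14) and *GYS1* (0.07). After normexp the value of *SLC2A1* was 0.37. That of *PFKL* was within the limit after normexp (0.26) and after scaling to the 75th percentile (0.31).

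Of the 6 genes of erythropoietin and iron, 1 was higher and 3 were lower past the limit (66.7%, against 18.0% of all genes), and the calls of 3 of these 4 did not hold under every setting. *TFRC*, the transferrin receptor that takes up iron, had 76.2 in HN and 136 in LN on its brightest probe, and its 3 probes gave log2 LN/HN of 0.77 to 0.84, with a mean of 0.80 (0.38 after normexp). *TF*, transferrin itself, was lower at -0.66 (3 probes from -0.87 to -0.48), and was -0.30 after normexp. *EPO* gave dim signals of 12.8 and 8.29, a log2 LN/HN of -0.49 that was -0.064 after normexp. Its receptor *EPOR* was just past the limit at -0.32, with probes at -0.57 and -0.08, and was within the limit under 4 of the 12 settings, at -0.08 with the brightest probe. *TFRC* was the highest of the 6 genes in this group, and the other 5 were all below 0.

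Of the 11 vascular and secreted factors, 8 were lower and 3 higher, and 1 was past the limit (9.09%, below the 18.0% of all genes). This was *ANGPTL4*, a regulator of lipoprotein lipase, with 193 in HN and 41.6 in LN and a log2 LN/HN of -2.20 from 1 probe, -1.24 after normexp. *VEGFA*, the vessel growth factor often used as a readout of HIF, had 0.01, with 3 probes from -0.02 to 0.06. Of the genes of stress and mitophagy, *DDIT4*, an inhibitor of mTOR signaling, was lower at -0.51 (12777 and 9253 on its brightest probe), and *BNIP3*, a mitophagy receptor, at -0.35 (-0.30 and within the limit without normalization). The remaining 4 of these 6 genes were within the limit, so 33.3% were past it against 18.0% of all genes.

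*LOX*, which crosslinks collagen, gave 487 in HN and 895 in LN on its only probe, a log2 LN/HN of 0.84 and the highest of the 52 genes. *P4HA2*, a collagen prolyl hydroxylase, had 0.28. All 5 fibroblast markers were also higher in the LN pool, 3 of them past the limit (60%, against 8.85% of all genes on that side), and their summed normalized signal was 34897 in HN and 43721 in LN. Their part in the *LOX* value was not tested. The 7 genes of transcription and chromatin with a value were all within the limit, from -0.22 (*BHLHE41*) to 0.27 (*KDM3A*, a mean that includes a limit from a dim probe, with probes from -0.07 to 0.78 and the brightest below 0). No probe was matched to *HK2*, *ALDOC*, *CA9*, *CA12*, *KDM4B*, *KDM4C*, *STC2* or *INSIG2*.

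**Figure D4:**
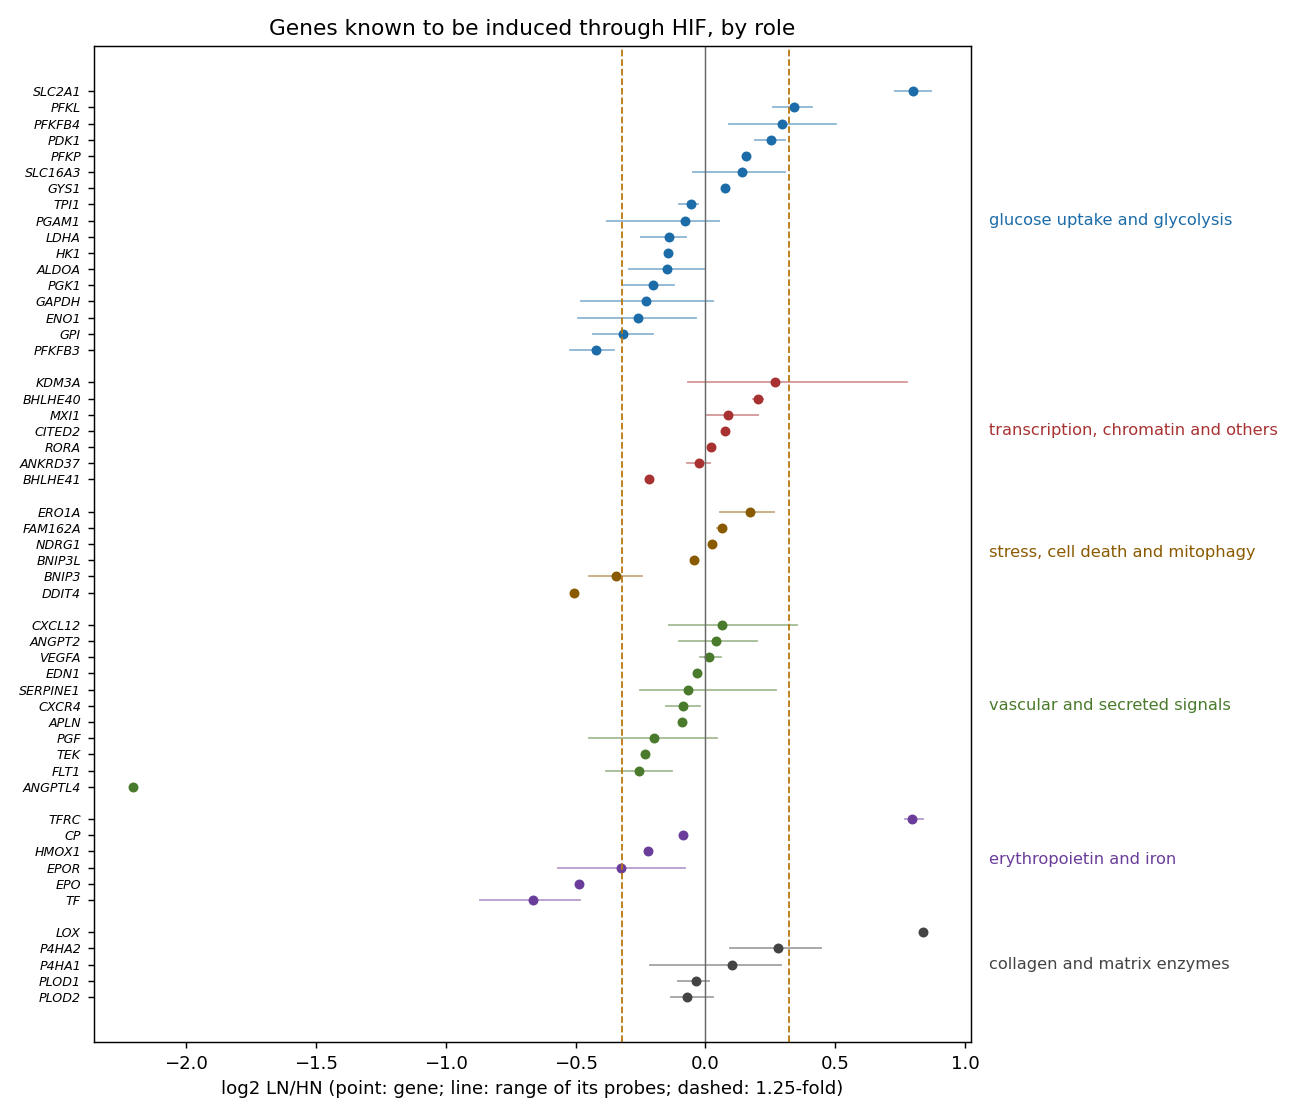
Log2 LN/HN of 52 genes known to be induced through HIF, grouped by role (points are genes, lines the range of their probes), with the limit of 0.32 as dashed lines. *LOX*, *SLC2A1* and *TFRC* lie near 0.8 and *ANGPTL4* at -2.20, and 11 of the 52 genes lie outside the dashed lines.

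The labelled tissue was checked against its markers, and all 10 skeletal muscle genes looked up were detected, with summed normalized signals of 869749 and 812272. Macrophage markers were lower in 4 of 5 genes with a value and summed to 5403 in HN and 4362 in LN. Erythroid markers summed to 17183 and 17142, mostly the signal of *HBA*, and *SLC4A1* was not well above background. Adipocyte markers summed to 171 and 190, with *LEP* not well above background. Over all genes, the share of higher genes among those past the limit was 49.3%, and 30.7% after scaling to the 75th percentile. No member spot was saturated or carried an outlier flag.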

How the data were processed

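The authors mixed total RNA of 4 fetuses per group, labelled it with Cy3 and hybridized each of the 2 pools to a Bovine (v2) 4x44K array. Per the file headers and the submitters' processing notes, spot signals were extracted with Feature Extraction 11.0.1.1 and deposited as background-corrected intensities without normalization between arrays, with quality flags. The authors also deposited log2 values of 30027 probes, quantile normalized in GeneSpring GX. The log2 scale was judged from the values.

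Here, log2 intensities of 43803 non-control spots were quantile normalized (limma 3.58.1, R 4.3.3). The 13 spots flagged as outliers on any array were left out, and spots of a probe were averaged (Python 3.11.15, numpy 2.4.6, pandas 2.3.3, matplotlib 3.10.9). For a probe well above background in a single pool, the other pool was given a floor, the lowest normalized log2 signal of any probe so marked there (2.27 for HN, 2.82 for LN), unless its own signal exceeded the floor. A probe whose bright side did not exceed that gave no fold. On HN 74.5% and on LN 70.9% of spots were well above background. The number of arrays limits the precision.

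Accessions were matched to symbols through the RefSeq gene table of ARS-UCD2.0 (26742 of 43652 probes). The headers name the older UMD_3.1, so no coordinates are given. The scanner files used here hold median but no mean spot signals, so normexp was run on median signals. The members, the 3 hand-written gene lists and the 7 marker lists were chosen with earlier results of these data known. Genes named are all members, list genes past 1.25-fold and the extremes of each list, with a few others named after their values were seen. Some items of these lists, and the totals of the adrenomedullin receptor list, are not reported here. The steps were tested on simulated data. The planned search of promoter and protein sequences was not run, as no sequences were used here. The 12 alternative settings concern scaling, background, dim probes, the choice of probe and flagged spots.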

Additional observations from a re-analysis of the deposited data

How the results depend on the processing

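Over the 12 alternative settings, the median of the 10 genes stayed between 0.053 and 0.15 and that of the HIF targets between -0.088 and -0.030, both moving by less than the median SD between probes of a gene (0.099). So did the median of the HIF regulators (0.010 to 0.048). The count of called genes among the 10 was less stable. It was 1 after normexp, with 0 lower (*EPAS1* lost), when 3.58% of all genes were called. It was 4, with 3 lower, both without a filter on dim probes (25.6% of all genes called) and with the looser filter of a positive signal that differs significantly from background (29.2%). There were 2 lower genes with the 75th percentile subtracted, without normalization and in the authors' values, *VHL* being the addition, and 2 with dim values as measured, where it was *EGLN2*. With the brightest probe there were 2 higher genes, the addition being *HIF3A*. No called gene changed direction. Of the HIF targets, 4 instead of 7 were lower after normexp, 5 in the authors' values and 9 (against 3 higher) after scaling to the 75th percentile, and 3 to 6 were higher over all settings, counts added after seeing the data like the values of single targets. No paired analysis was possible because each group has 1 pooled array. For the same reason no replicate could be left out. Dim signals limit *EPAS1*, *VHL*, *EPO* and the dim probe of *EGLN2*, whose values moved with the background correction or the treatment of dim probes. They also limit *EGLN3*, whose single probe went from 0.85 to 0.33 after normexp, barely past the limit of 0.32.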

Other observations

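Proteins that bind oxygen were not part of the lists above but were among the cell type markers. *MB*, which encodes the oxygen store myoglobin, gave deposited signals of 133309 in HN and 106721 in LN on its brighter probe. Its log2 LN/HN was -0.37 over 2 probes (-0.42 and -0.31), past the limit of 0.32. Of the 10 muscle markers, 8 were lower and 2 higher in the LN pool, with a median of -0.18. Past the limit were 2 lower (*MB* and *MYH1*, -0.50) and 1 higher (*MYH8*, 0.35), together 30% against 18.0% of all genes. The globin chain probes differed less. *HBA* gave 16495 and 16622 (log2 LN/HN 0.0021) and *HBB* 448 and 409 (-0.17), and *AHSP*, the chaperone of the α chain, had -0.16.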
